A study of Mus musculus with 5 samples.

Results

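Skeletal muscle contractile and energy genes were described on 5 liver arrays, of which 2 came from mice given nordihydroguaiaretic acid (NDGA), a lignan of the creosote bush known as an inhibitor of lipoxygenases. The 38 members are a fixed list of symbols: 18 thick and thin filament proteins, 8 Z-disc and scaffold proteins, 4 calcium handling proteins and 8 energy enzymes and carriers. They are 38 of 16637 named genes, and their 52 probes are among 21020 named probes. All 38 have a probe. The list was chosen after muscle genes had been seen high on the NDGA arrays. The NDGA differences of the members are therefore a description and carry no test. Liver of C57BL/6 mice was profiled with 1 array for each of 5 groups: wild-type (WT) on high-fat diet with NDGA, WT on high-fat diet, ob/ob on chow with NDGA, ob/ob on chow, and WT on chow. NDGA was given at 2.5 g per kg of food, and the diets lasted 16 weeks. The ob/ob mouse lacks functional leptin in all tissues, and no other allele or agent is named in the labels. The design text gives 3 animals per group, without saying whether their RNA was pooled on the array.

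A skeletal muscle fibre shortens when calcium released by the ryanodine receptor binds troponin, which lets myosin of the thick filament pull on actin of the thin filament. ATP for this is buffered by creatine kinases in the cytosol and in mitochondria, while myoglobin stores oxygen and a heart-type fatty acid binding protein carries fatty acids. Fast and slow fibres use different genes for most myosin and troponin subunits. Hepatocytes do not form sarcomeres. Car3 is a member that liver itself transcribes strongly, and its protein is a cytosolic carbonic anhydrase of muscle, fat and liver. The 8 hepatocyte markers with a probe had deposited intensities of 1405 or more on every array, where the array medians lay between 38.1 and 71.0.

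With 1 array per group there is no spread between mice, so no error or p-value can be given, and every difference is between 2 arrays. The NDGA comparison in WT was on high-fat diet and that in ob/ob on chow. Genotype and diet therefore cannot be told apart between them. Levels are quantile-normalized probe intensities, and differences are on the log2(intensity + 50) scale, where 1 is 2-fold; the offset makes differences of dim genes smaller. For genes with several bright probes, the differences of probes of 1 gene scattered with an SD per probe of 0.35 for NDGA in WT and 0.51 for NDGA in ob/ob. The ob/ob NDGA array was the brightest as deposited, with a median intensity of 71.0, against 38.1 on the ob/ob chow array; the other arrays lay between 38.8 and 47.0. On all 5 arrays, 45.1% to 54.1% of probes were below 50. No member was saturated. In bulk liver RNA, more cells of a type and more RNA per cell cannot be told apart.

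Most members were higher on the WT high-fat NDGA array than on the WT high-fat array, with energy genes furthest apart. Of the 38 members, 18 were at least 2-fold higher and 0 at least 2-fold lower, beside 0.493% and 0.829% of all named genes; since the list was chosen on this contrast, nothing is read from these shares together. A difference above 0 was found for 35 members, and the median was 0.76, beside -0.01 over all named genes. By role, 7 of 8 energy genes, 3 of 4 calcium genes, 6 of 18 filament genes and 2 of 8 Z-disc and scaffold genes were at least 2-fold higher, with medians of 2.81, 1.42, 0.69 and 0.37. Members held 7 of the 10 highest ranks among all named genes and 17 of the 50 highest. The members nearest the 2-fold line were Myl2 at 1.18 and Atp2a1 at 1.20 inside it, and Myh7 at 0.78 and Mybpc2 at 0.75 outside it.

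On the ob/ob NDGA array fewer members were high. Against ob/ob chow, 7 of 38 were at least 2-fold higher and 0 at least 2-fold lower, beside 3.76% and 0.289% of all named genes. The median of the members was 0.17, beside -0.02 over all named genes. Of the 7, 6 were energy genes (of 8, with a role median of 1.30) and the other was Mylpf. None of the 8 Z-disc and scaffold or 4 calcium genes was among them. Car3 at 1.03 and Mb at 1.29 lay just inside the 2-fold line, and Myl3 at 0.91 and Acta1 at 0.65 just outside it. Of the members, 23 lay above 0; without normalization all but Ttn (37) did, but the median over all named genes then lay at 0.36, so the sign of small ob/ob differences depends on the scaling.

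**Figure D1:**
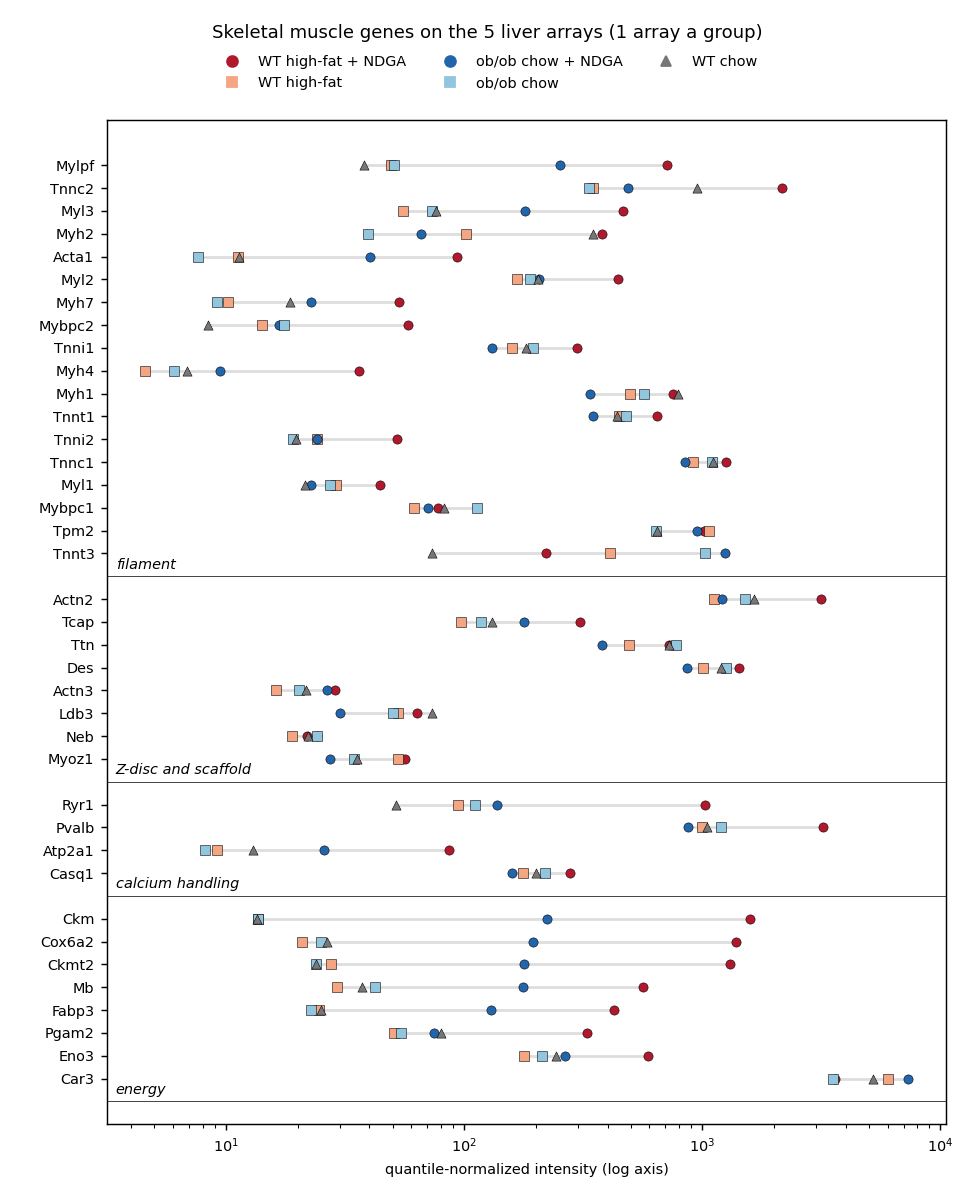
Quantile-normalized intensity (log axis) of the 38 members, by role, on the 5 arrays. Each point is 1 array, and the grey line spans the lowest to the highest array of a gene. Ckm lies at 1589 on the WT high-fat NDGA array and 223 on the ob/ob NDGA array, with the 3 other arrays at 13.4 to 13.6.

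The WT high-fat NDGA array was the highest of the 5 for 30 of the 38 members (20.6% of all named genes). The ob/ob NDGA array was above all 3 arrays without NDGA for 18 members (29.9% of all named genes). Both NDGA arrays were above all 3 arrays without NDGA for 16 members (5.57% of all named genes). The median level of the members was 434 on the WT high-fat NDGA array, against 58.4 on the WT high-fat array. It was 177 on the ob/ob NDGA array, against 63.6 on the ob/ob chow array, and 74.7 on the WT chow array. Members with a deposited intensity below 50 numbered 4 on the WT high-fat NDGA array, against 19 on the WT high-fat array, and 10 on the ob/ob NDGA array, against 19 on the ob/ob chow array. On the WT chow array they numbered 17. Of all probes, 50.9% were below 50 on the WT high-fat NDGA array and 53.1% on the WT high-fat array. The shares were 45.1% on the ob/ob NDGA array, 54.1% on the ob/ob chow array and 53.3% on the WT chow array. Many members thus read near the background of the arrays without NDGA, as did a similar share of all probes. The deposited values carry no detection call, so these members cannot be called absent there.

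The NDGA comparisons in WT and in ob/ob share no array, but all arrays were normalized together. The list was also chosen after the NDGA arrays were seen, so members high in both are a description only. There were 6 members at least 2-fold higher in both: Ckm, Cox6a2, Ckmt2, Mb, Fabp3 and Mylpf. They are among 12 such genes in all (0.0721% of named genes); those 12 are 14.6% of the 82 genes higher in WT and 1.92% of the 626 higher in ob/ob. Of the 6, 4 have a single start site in the RefSeq promoter table. Their promoters are shown because these genes were high on both NDGA arrays, and E-boxes are bound by the myogenic factors that switch on muscle genes. Each promoter runs 250 bases before to 50 after the start in build GRCm38.p6, as RefSeq gives it, 5′ to 3′ along the gene. Capitals mark E-boxes, CANNTG on either strand. The Ckm promoter lies at chr7:19410844-19411143 (forward strand), the Ckmt2 promoter at chr13:91876836-91877135 (reverse strand), the Fabp3 promoter at chr4:130308488-130308787 (forward strand) and the Mylpf promoter at chr7:127211358-127211657 (forward strand).
Ckm: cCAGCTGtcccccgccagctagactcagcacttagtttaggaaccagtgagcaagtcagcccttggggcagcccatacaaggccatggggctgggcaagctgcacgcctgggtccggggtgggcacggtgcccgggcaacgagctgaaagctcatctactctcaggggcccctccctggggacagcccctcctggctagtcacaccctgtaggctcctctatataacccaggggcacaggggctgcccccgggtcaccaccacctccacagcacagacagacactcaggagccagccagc
Ckmt2: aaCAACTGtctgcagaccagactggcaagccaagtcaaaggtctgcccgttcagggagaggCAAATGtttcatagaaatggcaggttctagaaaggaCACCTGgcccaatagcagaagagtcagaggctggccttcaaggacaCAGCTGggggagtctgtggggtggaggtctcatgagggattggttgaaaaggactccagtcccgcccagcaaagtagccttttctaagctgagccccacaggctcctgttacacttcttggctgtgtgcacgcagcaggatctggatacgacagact
Fabp3: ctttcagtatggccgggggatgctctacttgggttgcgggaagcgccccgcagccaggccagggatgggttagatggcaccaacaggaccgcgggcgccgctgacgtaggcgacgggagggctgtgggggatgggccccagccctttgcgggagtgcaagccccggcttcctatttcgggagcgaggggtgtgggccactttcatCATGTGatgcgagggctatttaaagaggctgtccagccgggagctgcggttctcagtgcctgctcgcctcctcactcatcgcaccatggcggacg
Mylpf: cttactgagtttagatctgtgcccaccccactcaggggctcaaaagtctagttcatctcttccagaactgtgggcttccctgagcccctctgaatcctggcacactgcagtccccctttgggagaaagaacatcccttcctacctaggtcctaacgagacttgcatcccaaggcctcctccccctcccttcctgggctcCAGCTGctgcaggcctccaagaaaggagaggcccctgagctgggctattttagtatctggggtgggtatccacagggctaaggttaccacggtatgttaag
The Ckmt2 promoter held 4 E-boxes, and those of Ckm, Fabp3 and Mylpf held 1 each. No match to MCAT (CATTCCT), to the MEF2 motif or to the CArG box was found in these 4 windows on either strand. Of all members, 30 had 37 promoters in the table: 31 of these (83.8%) held an E-box, beside 72.3% of all 32851 promoters. MCAT was in 3 member promoters (8.11%, beside 5.36% of all), the MEF2 motif in 5 (13.5%, beside 3.19%) and the CArG box in 5 (13.5%, beside 1.63%). MEF2 and CArG motifs share A and T runs and can overlap. A match is a run of letters, not a bound site.

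Among the energy genes, the creatine kinases and a muscle cytochrome oxidase subunit stood furthest apart. Ckm, the cytosolic muscle creatine kinase, read 1589 on the WT high-fat NDGA array, against 13.6 on the WT high-fat array. It read 223 on the ob/ob NDGA array, against 13.6 on the ob/ob chow array, and 13.4 on the WT chow array. The 3 arrays without NDGA were almost equal and both NDGA arrays were far above them, by a log2 difference of 4.69 (25.8-fold, rank 1 of 16637) in WT and 2.10 (4.29-fold, rank 7) in ob/ob. Cox6a2, the heart and muscle isoform of a cytochrome c oxidase subunit, read 1384 on the WT high-fat NDGA array, against 20.8 on the WT high-fat array. In ob/ob liver it read 194 on the ob/ob NDGA array, against 25.01 on the ob/ob chow array, and in WT on chow 26.6, so its differences were 4.34 in WT and 1.70 in ob/ob. Ckmt2, the mitochondrial creatine kinase of striated muscle, read 1308 on the WT high-fat NDGA array, against 27.7 on the WT high-fat array. Its ob/ob values were 178 on the ob/ob NDGA array, against 23.8 on the ob/ob chow array, with 23.8 in WT on chow, and its differences were 4.13 and 1.63.

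Mb, the oxygen store myoglobin, read 564 on the WT high-fat NDGA array, against 29.4 on the WT high-fat array. It read 176 on the ob/ob NDGA array, against 42.3 on the ob/ob chow array, and 37.3 on the WT chow array, with differences of 2.95 in WT and 1.29 in ob/ob. Fabp3 carries fatty acids in heart and muscle. It read 426 on the WT high-fat NDGA array, against 24.6 on the WT high-fat array, and 129.5 on the ob/ob NDGA array, against 22.8 on the ob/ob chow array. With 25.01 on the WT chow array, it was high on both NDGA arrays only, and its differences were 2.67 and 1.30. Pgam2, the muscle phosphoglycerate mutase of glycolysis, read 328 on the WT high-fat NDGA array, against 50.8 on the WT high-fat array. It read 74.9 on the ob/ob NDGA array, against 54.3 on the ob/ob chow array, and 80.2 on the WT chow array, so the ob/ob NDGA array lay within the range of the arrays without NDGA. Its differences were 1.91 in WT and 0.26 in ob/ob. Eno3, the muscle enolase, read 589 on the WT high-fat NDGA array, against 179 on the WT high-fat array, and 264 on the ob/ob NDGA array, against 212 on the ob/ob chow array. Its differences were 1.48 and 0.26, but its other, dimmer probe gave -0.19 and -0.36, so the probes of Eno3 disagreed. Car3 was the exception: it read 3595 on the WT high-fat NDGA array, against 6052 on the WT high-fat array, and 7285 on the ob/ob NDGA array, against 3550.3 on the ob/ob chow array, with 5227 on the WT chow array. It was lower with NDGA in WT (-0.74) and higher in ob/ob (1.03), and its other probe gave -0.33 and 0.28.

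The gain in intensity of ob/ob NDGA over ob/ob chow was set against the gain of WT high-fat NDGA over WT high-fat for the 21 members whose WT gain was at least 200. The ob/ob gain was positive for 14 of them and negative for 7, and as a share of the WT gain it ran from -174% for Ttn to 30.6% for Mylpf, with a median of 8.5%. Among the genes 2-fold higher in both comparisons the share was 13.3% for Ckm, 12.4% for Cox6a2, 12.0% for Ckmt2, 25.1% for Mb and 26.6% for Fabp3. It was negative for Actn2 at -15.1% and Pvalb at -14.6%, which read lower on the ob/ob NDGA array than on the ob/ob chow array. On the deposited values, where the ob/ob NDGA array was the brightest, 20 of the 21 gains were positive, with a median share of 32.5%. The order of the genes also differed there: Myl2 had 6.7% on normalized and 51.3% on deposited values, Eno3 12.8% and 51.5%, and Mylpf 30.6% and 50.2%. These shares therefore depend on the scaling. They also depend on the choice of members, since a large WT gain was required and is the divisor, which favours low shares. Car3, Tpm2 and Tnnt3 are left out, and these read higher with NDGA in ob/ob but lower in WT.

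**Figure D2:**
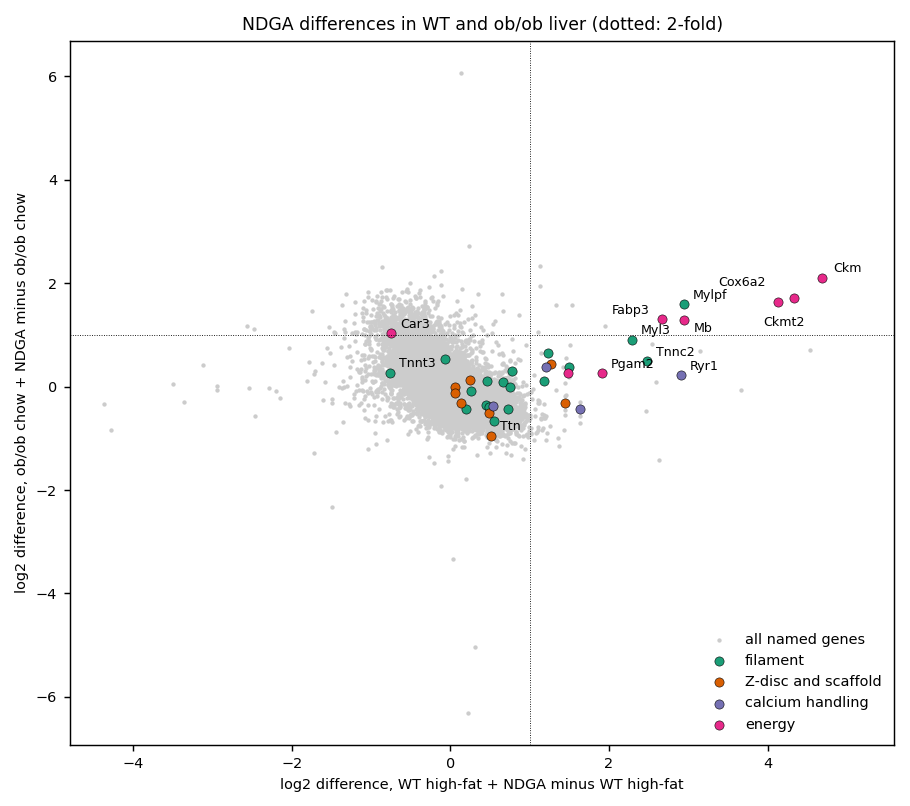
Log2 difference with NDGA in WT mice on high-fat diet (x axis) and in ob/ob mice on chow (y axis) for all named genes (grey) and the 38 members (coloured by role); dotted lines mark 2-fold. The 6 members beyond both lines are Ckm, Cox6a2, Ckmt2, Mb, Fabp3 and Mylpf, while Ryr1 lies at 2.90 and 0.22.

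Among the filament genes, light chains and a fast troponin stood furthest apart in WT. Mylpf, the regulatory light chain of fast fibres, read 712 on the WT high-fat NDGA array, against 49.2 on the WT high-fat array. It read 253 on the ob/ob NDGA array, against 50.5 on the ob/ob chow array, and 38.0 on the WT chow array; both NDGA arrays were above the others, by 2.94 in WT and 1.59 in ob/ob. Myl3, an essential light chain of slow fibres and heart ventricle, read 462 on the WT high-fat NDGA array, against 55.1 on the WT high-fat array. It read 180.4 on the ob/ob NDGA array, against 72.9 on the ob/ob chow array, and 76.1 on the WT chow array, again with both NDGA arrays highest, and with differences of 2.29 and 0.91. Tnnc2, the calcium-binding troponin of fast fibres, read 2154 on the WT high-fat NDGA array, against 347 on the WT high-fat array. It read 488 on the ob/ob NDGA array, against 334 on the ob/ob chow array, but 952 on the WT chow array, so WT chow stood between the NDGA arrays. Its difference was 2.47 for NDGA in WT and 0.49 in ob/ob. Acta1, skeletal muscle actin, was dim, with 93.3 on the WT high-fat NDGA array, against 11.2 on the WT high-fat array, and 40.3 on the ob/ob NDGA array, against 7.59 on the ob/ob chow array, and 11.3 on the WT chow array. Both NDGA arrays were above the others, by 1.23 and 0.65. Myl2, the slow and ventricular regulatory light chain, read 441 on the WT high-fat NDGA array, against 167 on the WT high-fat array. The other 3 arrays lay between 188 and 207, so it was high on 1 array only, by 1.18 in WT and 0.11 in ob/ob.

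Myosin heavy chains are close paralogues, and probe sequences were not used here, so their probes may share signal. Myh2, a fast heavy chain, read 378 on the WT high-fat NDGA array, against 102 on the WT high-fat array. It read 65.5 on the ob/ob NDGA array, against 39.4 on the ob/ob chow array, and 347 on the WT chow array, almost the level of the WT high-fat NDGA array. Its difference was therefore 1.5 against the WT high-fat array but 0.11 against WT chow. Myh1, another fast heavy chain, had probes that disagreed: the brighter gave 0.55 in WT and -0.67 in ob/ob. The dimmer Myh1 probe read 157 on the WT high-fat NDGA array, against 2.32 on the WT high-fat array, and 45.6 on the ob/ob NDGA array, against 7.17 on the ob/ob chow array. With 6.60 on the WT chow array, that probe was high on both NDGA arrays and gave 1.98 and 0.74. Myh4, the fastest mouse limb heavy chain, read 36.3 on the WT high-fat NDGA array, against 4.58 on the WT high-fat array, and 9.42 on the ob/ob NDGA array, against 6.06 on the ob/ob chow array. Myh7, the slow heavy chain, read 53.1 on the WT high-fat NDGA array, against 10.2 on the WT high-fat array, and 22.8 on the ob/ob NDGA array, against 9.18 on the ob/ob chow array. These dim genes differed by 0.66 and 0.78 in WT, below 2-fold on this scale. The other Myh7 probe, also dim, gave -0.05 in WT, and the mean of the Myh7 probes 0.36.

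Tnnt3, the fast troponin that binds tropomyosin, differed in pattern from the other filament genes. It read 220.1 on the WT high-fat NDGA array, against 409 on the WT high-fat array. It read 1242 on the ob/ob NDGA array, against 1023 on the ob/ob chow array, and 73.4 on the WT chow array. Both ob/ob arrays were highest and WT chow lowest, so its differences were -0.76 for NDGA in WT, 0.27 for NDGA in ob/ob and 3.12 for ob/ob against WT on chow. Tpm2, beta-tropomyosin, read 1020.2 on the WT high-fat NDGA array, against 1071 on the WT high-fat array, and its difference of -0.07 turned to 0.01 without normalization. In ob/ob Tpm2 differed by 0.54. The remaining 7 filament genes did not reach 2-fold in either NDGA comparison. In WT the troponins differed by 0.73 (Tnni1) and 0.49 (Tnnt1) for slow inhibitory and tropomyosin-binding forms, 0.45 for the slow and cardiac Tnnc1 and 0.46 for the fast inhibitory Tnni2. Myl1, a fast essential light chain, differed by 0.26, and the myosin-binding C proteins by 0.19 (Mybpc1, slow) and 0.75 (Mybpc2, fast). In ob/ob the normalized differences of these 7 genes ran from -0.44 (Tnni1) to 0.10 (Tnni2), and only that of Tnni2 lay above 0. By fibre type, 5 of 14 fast-fibre members and 2 of 6 slow-fibre members were at least 2-fold higher in WT, with medians of 0.60 and 0.75. In ob/ob the counts were 1 of 14 and 0 of 6, with medians of 0.09 and -0.13. Of all named genes, 0.493% were at least 2-fold higher in WT and 3.76% in ob/ob. Such small ob/ob counts do not tell the fibre types apart.

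At the Z-disc, where thin filaments of neighbouring sarcomeres are anchored, 2 genes were at least 2-fold higher in WT. Actn2, the alpha-actinin that crosslinks actin there, read 3139 on the WT high-fat NDGA array, against 1123 on the WT high-fat array. It read 1205 on the ob/ob NDGA array, against 1508 on the ob/ob chow array, and 1656 on the WT chow array; only the WT high-fat NDGA array stood out, with a difference of 1.44 in WT and -0.31 in ob/ob. Tcap, the telethonin that caps titin, read 305 on the WT high-fat NDGA array, against 97.4 on the WT high-fat array. It read 178 on the ob/ob NDGA array, against 118 on the ob/ob chow array, and 131 on the WT chow array, so both NDGA arrays were highest, by 1.27 and 0.44. Ttn, the giant spring protein titin, had 6 probes with differences of -0.14 to 1.01 in WT. Its brightest probe read 723 on the WT high-fat NDGA array, against 494 on the WT high-fat array, but 379.6 on the ob/ob NDGA array, against 779 on the ob/ob chow array, a difference of 0.51 in WT and -0.95 in ob/ob. Des, the intermediate filament desmin that smooth muscle also makes, differed by 0.48 and -0.51. The other members differed by 0.06 (Myoz1, which binds calcineurin) to 0.25 (Actn3, the fast-fibre alpha-actinin) in WT, with Neb (nebulin) at 0.06 and the scaffold protein Ldb3 at 0.14. Actn3, Myoz1, Neb and Ldb3 stayed at 73.1 or less on every array.

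Of the 4 calcium genes, 3 were at least 2-fold higher in WT and 0 in ob/ob, beside 0.493% and 3.76% of all named genes. Ryr1, the calcium release channel of skeletal muscle, read 1026 on the WT high-fat NDGA array, against 93.8 on the WT high-fat array. It read 137 on the ob/ob NDGA array, against 111 on the ob/ob chow array, and 51.7 on the WT chow array, with differences of 2.90 and 0.22. Its other probes, at 19.1 or less on every array, gave 0.05 and 0.20 in WT, so the Ryr1 difference rests on 1 probe, and the mean of its probes gave 1.05. Pvalb, parvalbumin, buffers calcium in fast fibres. It read 3209.6 on the WT high-fat NDGA array, against 998 on the WT high-fat array, and 875 on the ob/ob NDGA array, against 1197 on the ob/ob chow array, with 1042 on the WT chow array. Only the WT high-fat NDGA array was high, and the differences were 1.64 and -0.43. Atp2a1, the calcium pump of fast fibres, was dim, with 86.0 on the WT high-fat NDGA array, against 9.18 on the WT high-fat array, and 25.9 on the ob/ob NDGA array, against 8.18 on the ob/ob chow array, and 12.9 on the WT chow array. Both NDGA arrays were above the others, by 1.20 and 0.38. Casq1, the calcium store protein calsequestrin of fast fibres, read 278 on the WT high-fat NDGA array, against 176 on the WT high-fat array, and 159 on the ob/ob NDGA array, against 219 on the ob/ob chow array; its differences of 0.53 and -0.37 did not reach 2-fold.

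**Figure D3:**
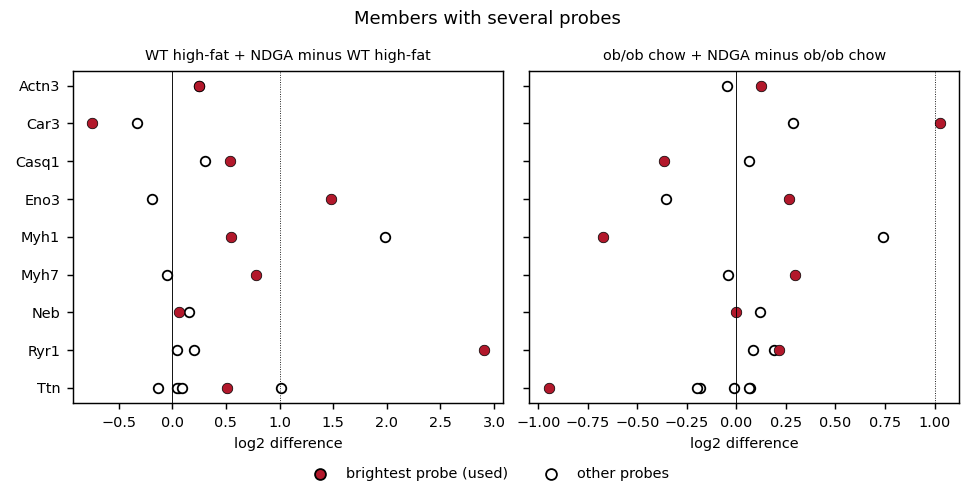
Log2 differences of every probe of the 9 members with several probes, for NDGA in WT (left) and in ob/ob (right); the brightest probe, used elsewhere, is marked apart from the others. Probes of Ryr1, Myh1, Eno3, Myh7 and Ttn disagreed in WT, with Ryr1 probes at 0.05 to 2.90.

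Of all 52 member probes, 20 were at least 2-fold higher on the WT high-fat NDGA array than on the WT high-fat array (0.400% of all named probes) and 7 on the ob/ob NDGA array than on the ob/ob chow array (3.57%). Of the 38 members, 29 have a single probe, so no second probe can be set beside Ckm, Cox6a2, Ckmt2, Mb, Fabp3 or Mylpf.

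Between groups without NDGA, few members were 2-fold apart. On the WT high-fat array against the WT chow array, 1 member was at least 2-fold higher (1.16% of all named genes) and 2 were lower (0.697%), and the median was -0.12, beside -0.0031 over all named genes. Against the same WT chow array, the ob/ob chow array also had 1 higher (0.595% of all named genes) and 2 lower (0.986%), with a median of -0.02, beside 0.01 over all named genes. Tnnt3 was the higher gene and Tnnc2 and Myh2 the lower genes in both, but these comparisons share the WT chow array. Tnnc2 differed by -1.34 for high-fat diet and -1.38 for ob/ob, and Myh2 by -1.39 and -2.15. Energy genes other than Car3 lay within -0.37 (Pgam2) and 0.07 (Ckmt2) for high-fat diet. The WT high-fat NDGA array against the WT chow array gave 15 members at least 2-fold higher (0.475% of all named genes) and a median of 0.75, beside -0.0077 over all named genes. Ckm differed by 4.69 there, Cox6a2 by 4.23 and Ryr1 by 3.40.

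Other tissues use sister genes for many of these proteins, and 14 such pairs had probes for both genes. Ckb, the brain creatine kinase, differed by -0.32 in WT, beside 4.69 for Ckm, but its probe was dim, at 54.8 or less on every array. Cox6a1, the isoform of liver and most tissues, differed by 0.05, beside 4.34 for Cox6a2; Cox6a1 read 49592 to 63459, near the top of the scale. Ckmt1, the ubiquitous mitochondrial creatine kinase, differed by 0.53, beside 4.13 for Ckmt2. Fabp1, the liver fatty acid binding protein, differed by 0.74 in WT and -0.53 in ob/ob, beside 2.67 and 1.30 for Fabp3. Pgam1 differed by -0.55 in WT and 0.98 in ob/ob, the reverse order of Pgam2 at 1.91 and 0.26. The probe of Atp2a2, the calcium pump of most tissues, read 9.88 or less on every array, near background, so its difference of -0.03 in WT is not informative. Over all 24 sister genes with a probe, 1 was at least 2-fold higher in WT (Actg1, cytoplasmic gamma-actin, 1.06) and 0 in ob/ob. The shares of all named genes were 0.493% and 3.76%. The median of the sister genes was 0.01 in WT and 0.14 in ob/ob.

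**Figure D4:**
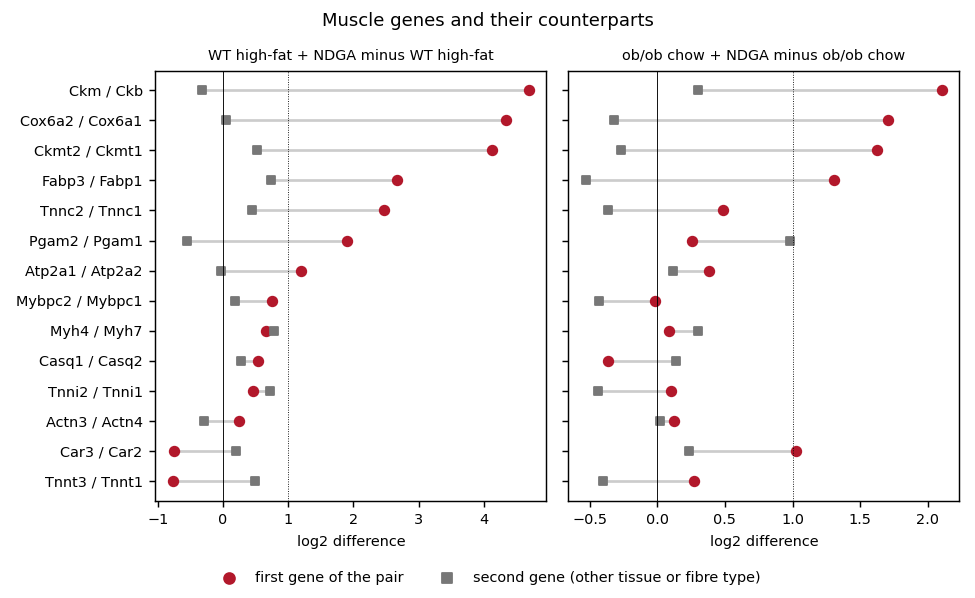
Log2 differences for NDGA in WT (left) and in ob/ob (right) of 14 members (circles) and their sister genes of other tissues or fibre types (squares; some are members too); the dotted line marks 2-fold. Ckm lies at 4.69 and Ckb at -0.32 in WT, while Tnnt3 lies below Tnnt1. The panels have different x ranges.

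Other genes of muscle were counted in the same way, beside 0.493% of all named genes at least 2-fold higher in WT and 3.76% in ob/ob. Of 65 further muscle genes with a probe, 7 were at least 2-fold higher on the WT high-fat NDGA array than on the WT high-fat array, and the median was 0.18. They were Ankrd23 (1.95), a titin-binding stress protein, Pygm (1.64), muscle glycogen phosphorylase, Tmod4 (1.64), a thin filament cap, and the small heat shock proteins Hspb7 (1.63) and Cryab (1.45). Rpl3l (1.5), a muscle ribosomal protein, and Xirp2 (1.44), an actin-binding repeat protein, were the others. In ob/ob only Gpd1 (1.36), a glycerol phosphate dehydrogenase that liver and fat also use, passed, and the median was -0.08. Of 11 myogenic factors, 0 were 2-fold higher in either NDGA comparison, with medians of 0.08 in WT and -0.07 in ob/ob. In WT 7 of the 11 lay above 0, and they ran from -0.50 (Mef2a) to 0.56 (Vgll2), with Six4 at 0.45, Myod1 at -0.10 and Myog at -0.24; 4 of the 11 were below a deposited intensity of 50 on the WT high-fat NDGA array. Of 8 genes of the neuromuscular junction, 0 were 2-fold higher, with medians of 0.17 in WT and -0.32 in ob/ob; the highest in WT was Chrne, an acetylcholine receptor subunit, at 0.56.

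Marker lists of other cell types are given beside these values, and their part in the muscle gene differences was not tested. Beside their counts, 0.493% of all named genes were at least 2-fold higher in WT and 3.76% in ob/ob. The 38 members summed to 28910.1 on the WT high-fat NDGA array, against 14911 on the WT high-fat array, and to 17711 on the ob/ob NDGA array, against 14156 on the ob/ob chow array. Car3, which liver itself transcribes strongly, weighs heavily in these sums. With NDGA its intensity changed by -2457 in WT and by 3735 in ob/ob. The ob/ob gain of Car3 was larger than that of the whole sum, so the other members together did not gain there. Smooth muscle markers had 1 of 10 at least 2-fold higher in WT (Actg2, 1.42) and 6 of 10 above 0, with a median of 0.32. Myh11 lay at 0.93 and Acta2 at 0.89, but Mylk at -0.17 and Cald1 at -0.26. In ob/ob the median was -0.36. The smooth muscle markers summed to 9974 on the WT high-fat NDGA array, against 7293 on the WT high-fat array, and 6529.6 on the ob/ob NDGA array, against 8950.1 on the ob/ob chow array. White fat markers had 1 of 6 at least 2-fold higher in each NDGA comparison, Cfd, an adipocyte complement factor, at 1.95 in WT and 1.18 in ob/ob. The white fat markers Fabp4, Plin1 and Lep stayed at 17.7 or less on every array, near background. Lpl lay at 0.62 in WT and 0.63 in ob/ob, and Adipoq at 0.35 and -0.32. The white fat markers summed to 5565 on the WT high-fat NDGA array, against 2337 on the WT high-fat array, and 2897 on the ob/ob NDGA array, against 1834 on the ob/ob chow array. Most of each sum came from Cfd and Lpl. Cfd read 3181 on the WT high-fat NDGA array, against 789 on the WT high-fat array, and Lpl read 2731 on the ob/ob NDGA array, against 1741 on the ob/ob chow array.

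Cardiac muscle markers had 0 of 11 at least 2-fold higher, with medians of 0.11 in WT and -0.07 in ob/ob, and Tnnt2 and Pln stayed at 9.08 or less. Brown fat markers had 0 of 4, with Ucp1 at 8.79 or less on every array. In WT, 0 of 8 pancreas, 0 of 6 tendon, 0 of 5 mesothelium and 0 of 3 red cell markers were at least 2-fold higher, and the red cell marker Alas2 was 2-fold lower (-1.07). In ob/ob 1 of the 8 pancreas markers was 2-fold higher (Cela1, 1.05). Hepatocyte markers had 0 of 8 higher in WT and 2 of 8 in ob/ob, which were Cps1 at 1.71 and Trf at 1.03. In WT 3 of the 8 lay above 0, with Fgb highest at 0.65. Trf lay at -0.77, Cps1 at -0.73 and Ttr at -0.52 there. Alb and Ahsg were above the saturation level of 65000 on both WT high-fat arrays, so they could not read 2-fold higher.

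**Figure D5:**
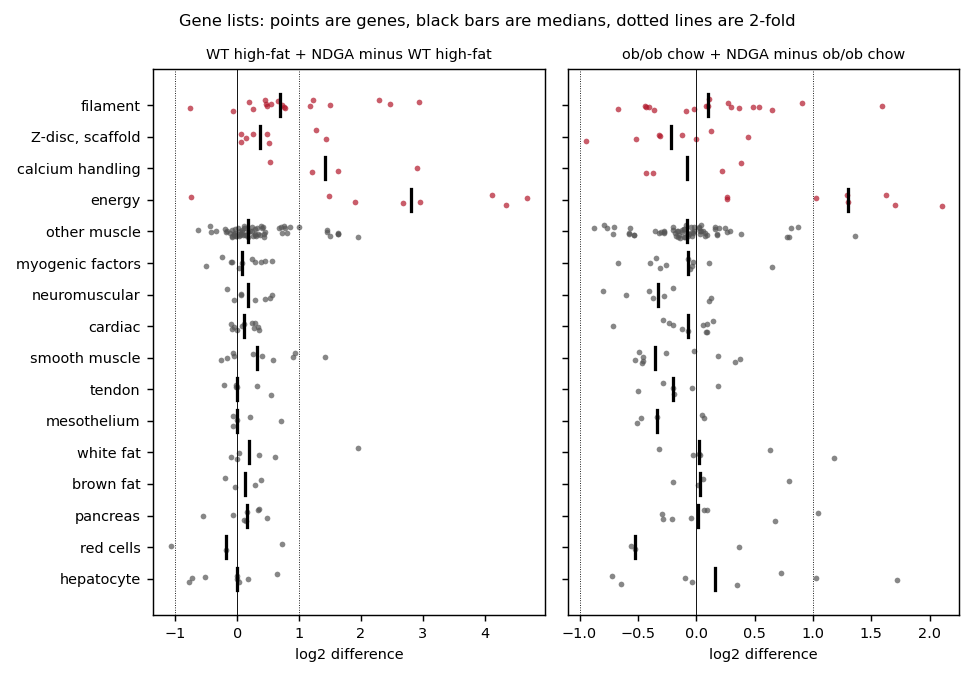
Log2 differences of each gene of the member roles and of the other lists, for NDGA in WT (left) and in ob/ob (right), with the median of each list. Energy genes have medians of 2.81 in WT and 1.30 in ob/ob, and the myogenic factors of 0.08 and -0.07.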

How the data were processed

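Per the labels, Cy5-labelled liver RNA of 5 groups was measured on Phalanx Mouse OneArray, with 1 array per group. The authors deposited linear probe intensity values; which scanner, background correction and scaling they used is not given in these sources. Deposited values below 0 occur, and the array medians differ. Probes were named through the platform table, with symbols updated through a RefSeq table of GRCm38.p6: of 29922 probes, 21020 had 1 symbol and 8902 were unnamed here.

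Intensities were quantile normalized over 5 arrays, and log2(value + 50) was taken, because of the negative values. For a gene with several probes the one with the highest mean was used, with no filter on dim genes. Differences of at least 2-fold were counted; no test was possible with 1 array per group. Another 9 settings, and 1 chosen after seeing the data (quantile normalization over 4 arrays), are given in the closing section. The steps were tested on simulated data. Python 3.11.15, numpy 2.4.6, pandas 2.3.3 and statsmodels 0.14.6 were used.

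The members and lists were chosen with earlier results of these data known. The text names all members, the genes of other lists at least 2-fold apart in WT, and the genes whose profile over the arrays was nearest. Of sister genes and other lists, only some further genes are named, chosen after their values were seen.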

Additional observations from a re-analysis of the deposited data

Results flagged for a closer look

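For 4 of 103 muscle genes with a probe (3.88%), NDGA differences of at least 1.5-fold ran in opposite directions in WT and in ob/ob. The WT arrays were on high-fat diet and the ob/ob arrays on chow, so genotype and diet cannot be told apart here. The opposite directions were not tested, since each difference rests on single arrays. Of all 16637 named genes, 791 (4.75%) showed such opposite differences. Car3, the muscle, fat and liver carbonic anhydrase, differed by -0.74 in WT and 1.03 in ob/ob, or -0.54 and 0.66 by the mean of its probes. Gpd1 differed by -0.63 in WT and 1.36 in ob/ob. Slc2a4, the insulin-responsive glucose transporter of muscle and fat, differed by 0.73 in WT and -0.77 in ob/ob. Tmod4 differed by 1.64 in WT and -0.71 in ob/ob. Without normalization the ob/ob differences of Slc2a4 and Tmod4 were 0.03 and 0.16, so for them the opposite direction depends on the scaling.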

How the results depend on the processing

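No paired analysis was possible because each group has 1 array and no replicate numbers; for the same reason no replicate could be left out. Of 98 alternative values of the member medians and counts, 93 stayed within 1.5-fold of those reported. For a median this limit is wide, and a median near 0 can change sign within it. Within it lay a WT median of 1.33 with an offset of 16, against 0.76, and an ob/ob median of 0.60 without normalization, against 0.17. Leaving out saturated probes could not change the members, since none was saturated. The 5 that moved were these. For NDGA in WT the median was 1.44 with a filter at the median level, which kept 25 members, and the count was 3 with a filter at the 75th percentile, which kept 11. For NDGA in ob/ob the count was 12 without normalization, where 18.4% of all named genes were 2-fold higher, and 1 with the 75th-percentile filter. For WT high-fat NDGA against WT chow the count was 3 with that filter. The filters remove members with a low mean over the arrays, so fewer can be counted. All 18 members higher in WT remained so without normalization, with median centring, loess, the floor and 4-array quantile normalization. The mean of all probes lost Eno3 (0.65) and gained Myh1, and an offset of 16 gave 21 members. In ob/ob the mean of all probes lost Car3, and median centring and loess added Myl3. The ob/ob median was -0.36 with the 75th-percentile filter. The cause of these shifts was not tested. For members near background on the arrays without NDGA, the offset and the background limit the size of the differences.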

Other observations

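The non-member genes whose 5-array profile lay nearest to the median profile of the 18 members higher in WT were sought among 160 genes with a range of at least 2 log2 units. In order of Euclidean distance they were Ankrd23 (0.36), Ankib1 (0.74), Capg (0.76), H19 (0.87), Nme6 (0.88) and Idi1 (1.08). Ankrd23 is a muscle gene; Capg encodes an actin-capping protein, H19 an imprinted noncoding RNA and Idi1 an isoprenoid enzyme. With 5 arrays such likeness is a description only.

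The 6 genes besides the members that were at least 2-fold higher in both NDGA comparisons were Cfd, Cidea, Cyp4a14, Cyp7a1, Ehhadh and Pltp. Ehhadh, a peroxisomal fatty acid oxidation enzyme, differed by 1.34 in WT and 1.57 in ob/ob, and Cyp4a14, which hydroxylates fatty acids, by 1.13 and 2.34. Cyp7a1, which starts the making of bile acids, differed by 1.53 and 1.57, and Cidea, a lipid droplet protein, by 1.13 and 1.94.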
